A study of Homo sapiens with 12 samples.

Results

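The 9 genes described here encode apolipoproteins, the protein parts of the particles that carry lipid in blood. APOA1, APOA2, APOA4, APOB, APOC1, APOC3, APOE, APOH and APOM were taken by name from the 22148 genes of the deposited tables, and all 9 were present. RNA came from HepG2, a human liver cancer line that secretes lipoproteins and is often used as a model of hepatocytes. The study asked how silencing of CPSF6 changes RNA stability. Cells transfected with a control siRNA (si-NC) or with siRNAs against CPSF6 (si-CPSF6) were cultured for 48 h, and all of them were then given actinomycin D at 5 µg/ml, which blocks transcription. They were collected at 0, 3 or 6 h of the drug, so the 0 h groups had been transfected but had no drug time. Each of the 6 groups held 2 biological replicates, 12 libraries in all, and every library came from the same line. How many different siRNAs against CPSF6 were used is not given in the sources used here.

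APOB is the large structural protein of very low and low density lipoprotein, and 1 copy stays with each particle for its life. APOA1 and APOA2 are the main proteins of high density lipoprotein, while APOC1, APOC3, APOE and APOA4 move between particles, where they act on lipases and on receptors that clear the particles. CPSF6 is a subunit of cleavage factor Im, a complex that recognizes UGUA motifs in pre-mRNA and influences which 3′ end an mRNA receives. Hepatocytes make most of these proteins, and APOA4 is made chiefly by the intestine in people.

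The annotated 3′ ends are shown because cleavage factor Im acts there. Each line is the last 30 bases of the annotated main transcript, 5′ to 3′, read from GENCODE release 29 on GRCh38, with the first polyadenylation hexamer AATAAA in capitals.
APOB: aAATAAAtggagtctttattgtgtatcata
APOA1: tgctcagAATAAAcgtttccaaagtgggaa
APOA2: ctttgctacAATAAAtgctgaatgaatcca
APOA4: tcAATAAAgctgctgagaatctagcctcaa
APOC1: ccccaggtgccaccAATAAAaatcctacag
APOC3: ccAATAAAgctggacaagaagctgctatga
APOE: gtttAATAAAgattcaccaagtttcacgca
APOH: aaaAATAAAgctactgaatttattgccgca
APOM: aagatAATAAAgataatttttcaatcctca

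All 9 ends held AATAAA on the transcribed strand. So did 53.1% of a set of 8224 protein-coding genes that entered the tests, and 66.6% held AATAAA or ATTAAA. That set holds only genes with a transcript annotated as a principal isoform of the first rank, whatever its 3′ UTR length. The hexamer started between 16 bases (APOC1) and 29 bases (APOB) before the annotated end. The annotated 3′ UTRs were short, from 57 bases in APOA1 to 301 bases in APOB with a median of 121, against a median of 1069 bases over those 8224 genes. TGTA, the DNA form of UGUA, was searched on the transcribed strand only and can share 1 base with AATAAA. It lay within the last 100 bases of 1 of the 9 transcripts, APOB, against 52.7% of all, and anywhere in the 3′ UTR of 3: APOB, APOC3 and APOM. The last 100 bases reach into coding sequence in APOA1, whose 3′ UTR has 57 bases. For the whole 3′ UTR, whose length differs between genes, no share of all genes was counted. These matches describe the annotated letters and are not evidence of binding or of the end used in these cells.

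**Figure D1:**
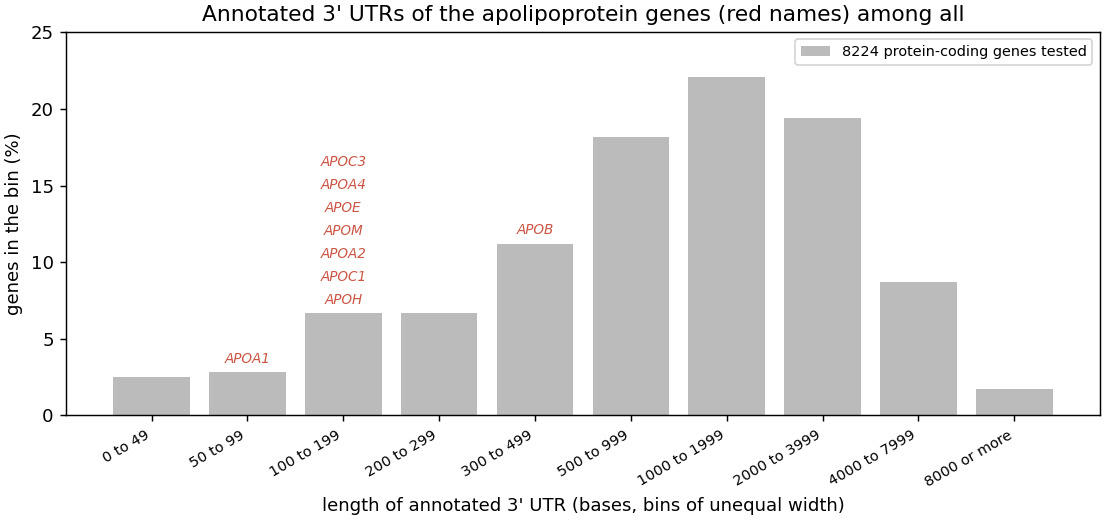
Share of 8224 protein-coding genes (bars, %) in each bin of annotated 3′ UTR length (bases, unequal bins), with the apolipoprotein genes named in red above their bin. Of the 9 genes, 8 lie below 200 bases and APOB lies between 300 and 500 bases.

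On GRCh38, 3 of the genes are neighbours in the cluster on chromosome 11: APOA4 (ENSG00000110244, 116820700 to 116823306, minus strand), APOC3 (ENSG00000110245, 116829706 to 116833072, plus strand) and APOA1 (ENSG00000118137, 116835751 to 116837950, minus strand). APOE (ENSG00000130203, 44905754 to 44909393) and APOC1 (ENSG00000130208, 44914247 to 44919349) lie side by side on the plus strand of chromosome 19. APOA2 (ENSG00000158874) spans 161222292 to 161223631 on the minus strand of chromosome 1. APOB (ENSG00000084674) spans 21001429 to 21044073 on the minus strand of chromosome 2. APOH (ENSG00000091583) spans 66212033 to 66256525 on the minus strand of chromosome 17. APOM (ENSG00000204444) spans 31652416 to 31658210 on the plus strand of chromosome 6, and its first bases, 31652416 to 31652705, overlap BAG6 on the other strand. Whether reads were counted by strand is not given in the sources used here, and BAG6 had a mean normalized count of 8677.83, so values of APOM are uncertain. APOE and APOC1 overlap AC011481.3, whose mean was 22.92. The antisense or unconfirmed genes that overlap APOA1, APOA4 and APOB were not analysed here.

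Levels are given as normalized counts, which the authors had scaled to a common upper quartile, and depth was 21800000 to 30300000 reads per library, as read from the spacing of the values. In the 0 h libraries CPSF6 stood at 2147 and 2082 normalized counts in si-NC and at 768 and 718 in si-CPSF6. The difference was -1.51 on the log2 scale at 0 h and -2.19 and -2.16 at 3 and 6 h, so the targeted mRNA was lower in every si-CPSF6 library. All 9 hepatocyte markers exceeded 1 TPM (a level per transcript length) and summed to 15920 to 22940 TPM per library, with the lowest sums in si-CPSF6 at 0 h. Of 7 enterocyte markers 4 were listed, none exceeded 1 TPM, and they summed to 0.208 to 0.56 TPM. Of 14 stromal, endothelial and immune markers 8 were listed and 5 exceeded 1 TPM. Their sum, led by LYZ, was 424.5 to 566.8 TPM in si-NC and 287.4 to 417.3 TPM in si-CPSF6 at 0 h. Of 6 tested at 0 h 2 were higher and 2 lower in si-CPSF6, beside 21.8% and 21.1% of all genes. The median log2 difference of the 6 was 0.01. CD14 stood at 1.72 TPM in si-NC and 5.57 TPM in si-CPSF6 (1.56, limma adjusted p = 1.3e-05) and ACTA2 at 27.3 and 15.1 TPM (-0.77). The part of these markers in the results was not tested.

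Most members ranked among the most abundant mRNAs of the cell line. In si-NC at 0 h APOC3 had rank 334 and APOM rank 1082, and APOA4 lay far below. In si-NC at 0 h, APOA2 stood at 7942 ± 747 TPM (SD, n = 2) and APOA1 at 5210 ± 108 TPM, ranks 13 and 16 of 22148 genes. APOH followed at 1505 ± 190 TPM and APOE at 1364 ± 160 TPM, and these neighbours overlapped. APOC1 stood at 653 ± 62.2 TPM, APOB at 520 ± 14.1 TPM, APOC3 at 291 ± 5.69 TPM and APOM at 99.4 ± 19.2 TPM, with no overlap between neighbours in that order. APOA4 was last, at 2.56 ± 0.981 TPM and rank 10785. In si-CPSF6 at 0 h no neighbours overlapped, and the order differed: APOE, at 1653 ± 91.9 TPM, lay above APOH, at 923 ± 20.9 TPM, and APOB, at 824 ± 2.25 TPM, lay above APOC1, at 424 ± 30.2 TPM. APOA4 reached 12.7 ± 0.657 TPM there, rank 6371. Together the 9 mRNAs took 1.76% to 1.98% of TPM at 0 h and 2.59% to 2.79% at 6 h.

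**Figure D2:**
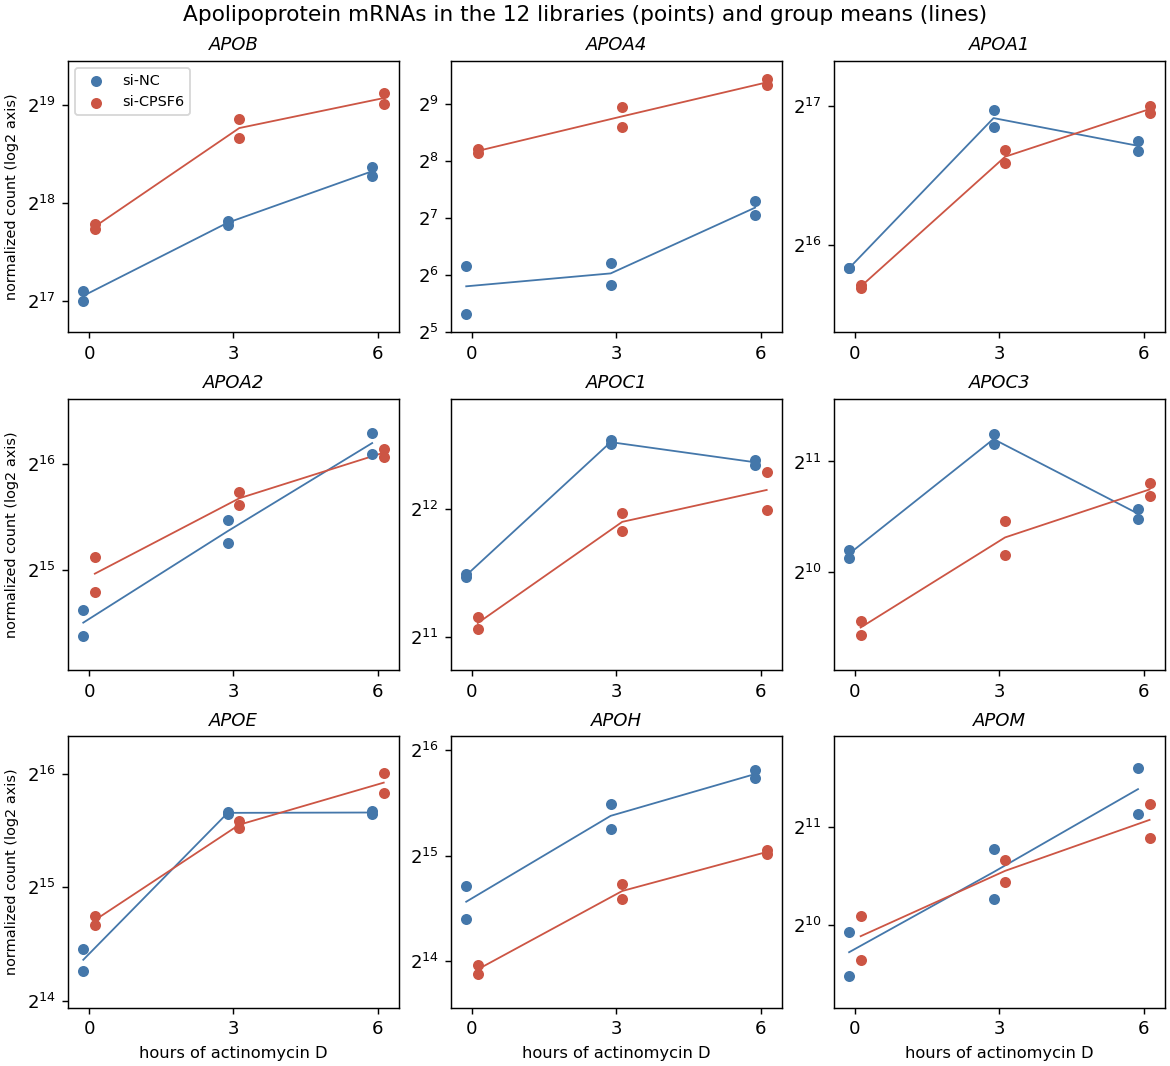
Normalized counts (log2 axis) of each mRNA in every library (points) and group means (lines) against hours of actinomycin D, si-NC in blue and si-CPSF6 in red. APOB and APOA4 lie above the control at all 3 times, and APOH and APOC1 lie below. The lines of APOC3, APOA1, APOE, APOA2 and APOM cross between 3 and 6 h, and those of APOE also cross before 3 h. The points of APOA2 at 6 h and of APOM at all 3 times overlap between the arms.

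The effect of CPSF6 silencing before the drug differed from member to member. At 0 h 4 of the 9 mRNAs were higher in si-CPSF6 (APOA4, APOB, APOA2 and APOE) and 3 were lower (APOC3, APOH and APOC1) at a limma adjusted p (Benjamini-Hochberg over 12939 genes) under 0.05. Of all genes tested 21.8% were higher and 21.1% lower. The shares of members that passed were larger in each direction, but 9 genes are few. The all-gene shares, here and below, include genes of much lower level than most members and were not matched for level. Whether members passed more often than genes of like level was not tested. At 3 h, 3 members were higher and 4 lower, with 26.2% and 29.1% of all genes. At 6 h, 4 were higher and 2 lower, with 27% and 28.6% of all genes. The members' median difference was 0.16 at 0 h, -0.11 at 3 h and 0.22 at 6 h on the log2 scale, against 0.00, -0.03 and -0.02 over all genes. In RNA from whole cultures, fewer cells that express a gene and less of its RNA per cell cannot be told apart.

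**Figure D3:**
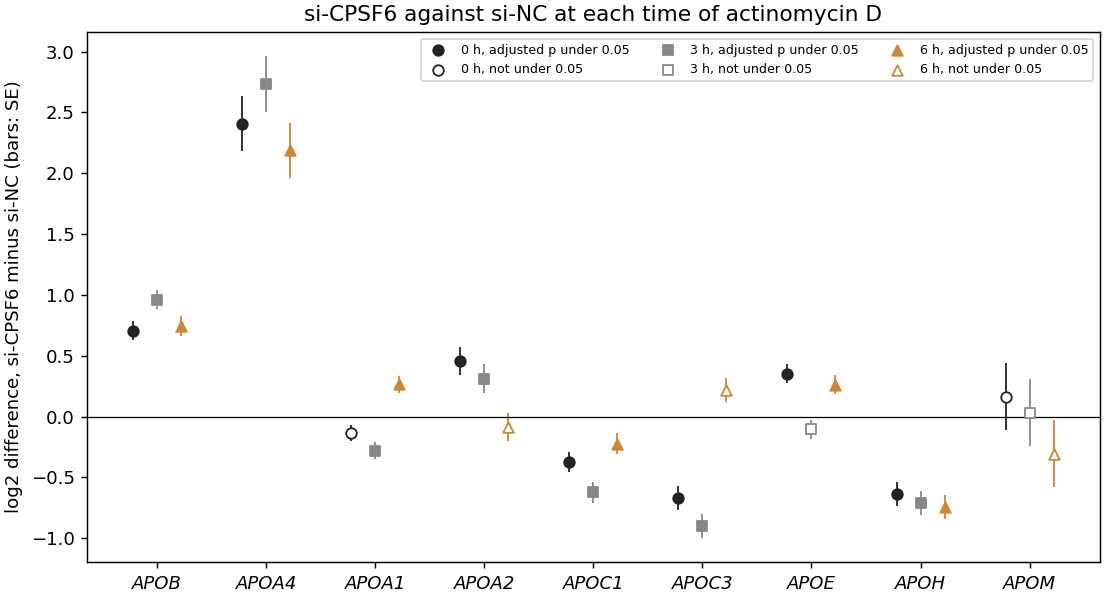
Log2 difference in normalized count between si-CPSF6 and si-NC for each mRNA at 0, 3 and 6 h of actinomycin D, with standard errors as bars. Filled symbols mark an adjusted p under 0.05; APOA4 lies between 2.19 and 2.73, APOB between 0.71 and 0.96, and APOH between -0.64 and -0.74.

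APOB, the core protein of very low density lipoprotein, was higher in si-CPSF6 at every time. At 0 h its normalized count was 140855 and 131415 in the si-NC libraries and 225507 and 218616 in the si-CPSF6 libraries. At 3 h it was 231710 and 224820 in si-NC and 475972 and 414796 in si-CPSF6. At 6 h it was 318033 and 338542 in si-NC and 571859 and 529090 in si-CPSF6. The arms did not overlap at any time. With 2 libraries in each group such separation is only a description, here and for the members below, as its share over all genes was not counted. The difference was 0.71 at 0 h (SE 0.08, limma adjusted p = 6.1e-06), 0.96 at 3 h and 0.75 at 6 h on the log2 scale, or 1.63-fold, 1.95-fold and 1.68-fold. It passed at each time with every library left out in turn and with spike-in scaling, where it was 0.61, 0.98 and 0.73.

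APOA4, an exchangeable apolipoprotein of chylomicrons and high density lipoprotein, had the largest relative difference of the 9 and the lowest level. Its normalized counts at 0 h were 72 and 40 in si-NC and 283 and 296 in si-CPSF6. At 3 h they were 74 and 57 against 492 and 389, and at 6 h 158 and 133 against 689 and 641. Every si-CPSF6 library thus lay above every si-NC library. The difference was 2.41 at 0 h (SE 0.23, limma adjusted p = 2.5e-06), 2.73 at 3 h and 2.19 at 6 h on the log2 scale, or 5.31-fold, 6.65-fold and 4.56-fold. At 0 h, 99.8% of the genes tested had a lower difference. The si-NC replicates at 0 h rested on about 99 reads (exact 95% Poisson interval 80.5 to 120.5) and 54 reads (40.6 to 70.5), intervals that cover counting error only. With 1 of the libraries left out the 0 h difference ranged from 1.99 to 2.82 and passed each time. The 4 enterocyte markers present summed to 0.224 to 0.512 TPM in si-NC and to 0.302 to 0.489 TPM in si-CPSF6 at 0 h. Single markers moved both ways: MEP1A had 0.093 TPM in si-NC and 0.246 TPM in si-CPSF6, and FABP2 had 0.194 and 0.133 TPM. All were too low to enter the fit, and their relation to APOA4 was not tested.

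APOA1 and APOA2, the main proteins of high density lipoprotein, showed smaller differences that changed over the drug course. APOA1 stood at 58214 and 58252 normalized counts in si-NC and at 53456 and 52734 in si-CPSF6 at 0 h, lower in both by a difference of -0.13 that missed the threshold (SE 0.07, limma adjusted p = 0.13). With the replicate number as a block that value had an adjusted p of 0.029, and in the TPM table the difference was -0.21 (adjusted p = 0.0033). At 3 h APOA1 was 129018 and 118170 in si-NC and 98446 and 105224 in si-CPSF6, a fall of the silenced arm below the control by 0.28 (limma adjusted p = 0.0028). At 6 h it was 110205 and 104889 in si-NC and 126972 and 131593 in si-CPSF6, which was higher by 0.27 (limma adjusted p = 0.0037). The arms did not overlap at any of the 3 times, and the order turned between 3 and 6 h. With spike-in scaling the differences of -0.26 at 3 h and 0.25 at 6 h no longer passed (adjusted p = 0.12 and 0.14).

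APOA2 stood at 25172 and 21333 normalized counts in si-NC and at 35646 and 28349 in si-CPSF6 at 0 h, with no overlap. The difference was 0.46 (SE 0.12, limma adjusted p = 0.0072), and 0.29 (adjusted p = 0.088) without si-CPSF6 replicate 1 or 0.34 (adjusted p = 0.078) without si-NC replicate 2. At 3 h the counts were 45409 and 39049 against 54510 and 50120, a difference of 0.31 (limma adjusted p = 0.038). That call was lost without si-NC replicate 2 (0.20), si-CPSF6 replicate 1 (0.25) or si-CPSF6 replicate 2 (0.37). At 6 h the counts, 80115 and 69887 in si-NC and 72302 and 68622 in si-CPSF6, overlapped. In all 6 groups replicate 1 was above replicate 2, as it was for APOM.

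APOC3 and APOC1, small apolipoproteins that restrain lipases and particle uptake, were lower in si-CPSF6 at 0 and 3 h. APOC3 stood at 1174 and 1117 normalized counts in si-NC and at 689 and 752 in si-CPSF6 at 0 h. At 3 h it was 2431 and 2283 in si-NC and 1134 and 1406 in si-CPSF6. At 6 h the order turned, with 1523 and 1426 in si-NC and 1643 and 1791 in si-CPSF6. The difference was -0.67 at 0 h (SE 0.10, limma adjusted p = 7e-05) and -0.90 at 3 h (limma adjusted p = 2.3e-06), that is 62.9% and 53.6% of the control. At 6 h it was 0.22 and missed the threshold (limma adjusted p = 0.068, and 0.033 with the replicate block). With median-ratio scaling the 6 h value was 0.24 (adjusted p = 0.042), in TPM 0.31 (adjusted p = 0.036) and with spike-in scaling 0.20 (adjusted p = 0.36). It also passed without either si-CPSF6 3 h library (adjusted p = 0.033 in both cases), which changes only the estimate of the spread.

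APOC1 stood at 2833 and 2888 normalized counts in si-NC and at 2143 and 2278 in si-CPSF6 at 0 h. At 3 h it was 5941 and 5807 against 3639 and 3998, and at 6 h 5342 and 5195 against 4065 and 5008. The si-CPSF6 libraries were the lower ones each time. The difference was -0.37 at 0 h (SE 0.09, limma adjusted p = 0.0027), -0.62 at 3 h and -0.22 at 6 h (limma adjusted p = 0.037). The 6 h call rested on few libraries: the value was -0.07 without si-CPSF6 replicate 1, -0.20 without si-NC replicate 1 and -0.24 without si-NC replicate 2, none of which passed. It was also lost with spike-in scaling (adjusted p = 0.22), median-ratio scaling (0.059) and with TPM values (0.68), and in the TPM table the 3 h value was -0.43 (adjusted p = 0.075).

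APOE, a ligand through which hepatocytes take up remnant particles, stood at 19595 and 22461 normalized counts in si-NC and at 26095 and 27532 in si-CPSF6 at 0 h. At 3 h it was 51961 and 51529 in si-NC and 47157 and 49079 in si-CPSF6, and at 6 h 51488 and 52221 against 58407 and 66148. The si-CPSF6 libraries were thus above the control at 0 and 6 h and below it at 3 h. The difference was 0.35 at 0 h (SE 0.08, limma adjusted p = 0.002) and 0.26 at 6 h (limma adjusted p = 0.01), while -0.11 at 3 h missed the threshold (limma adjusted p = 0.27). The 6 h value was 0.17 without si-CPSF6 replicate 2 (adjusted p = 0.14). With spike-in scaling the 0 h and 6 h values were 0.26 and 0.24, and neither passed (adjusted p = 0.17 each).

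APOH, which binds anionic phospholipid and is also called beta-2-glycoprotein I, was lower in si-CPSF6 at all 3 times. It stood at 26751 and 21582 normalized counts in si-NC and at 15928 and 15022 in si-CPSF6 at 0 h. The counts were 46049 and 39074 against 24658 and 27216 at 3 h, and 57478 and 54651 against 33059 and 34013 at 6 h. No si-CPSF6 library reached a control library of its time. The difference was -0.64 at 0 h (SE 0.10, limma adjusted p = 0.00016), -0.71 at 3 h and -0.74 at 6 h, or 64.4%, 61.1% and 59.8% of the control. All 3 values passed with spike-in scaling, at -0.73, -0.69 and -0.76, and with each library left out.

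APOM, a lipocalin of high density lipoprotein that carries sphingosine 1-phosphate, did not pass at any time in the main fit, which left out the replicate number. Its normalized counts at 0 h were 974 and 712 in si-NC and 1091 and 797 in si-CPSF6, and the arms overlapped at 0, 3 and 6 h. The difference at 0 h was 0.16 with a 95% interval of -0.49 to 0.81, and of 0.01 to 0.32 with the replicate block (adjusted p = 0.07). At 6 h the counts were 3097 and 2237 against 2405 and 1888, a difference of -0.30 (limma adjusted p = 0.38). With the replicate block it passed as lower (adjusted p = 0.0011), and replicate 1 exceeded replicate 2 in both arms.

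After actinomycin D, normalized counts of nearly all members rose in both arms. In si-NC 8 of 9 passed as higher at 3 h and 9 at 6 h, against 45.8% and 48.6% of all genes, and 0 passed as lower, against 25.7% and 30.7%. In si-CPSF6 8 passed as higher at 3 h and 9 at 6 h, against 43.6% and 49.8% of all genes, and 0 as lower, against 22.9% and 27.6%. The exceptions at 3 h were APOA4 in si-NC, at 0.27 (limma adjusted p = 0.30), and APOM in si-CPSF6, at 0.68 (limma adjusted p = 0.062, and 3.4e-08 with the replicate block). The members' median at 6 h was 1.27 in si-NC and 1.20 in si-CPSF6 on the log2 scale, where the median of all genes was 0.31 and 0.35. Some 3 h values turned on 1 library. APOA4 in si-NC was 0.69 (adjusted p = 0.0094) without 0 h replicate 1 and -0.15 without 0 h replicate 2. APOA4 in si-CPSF6, at 0.59, did not pass without either 0 h library (0.56 and 0.63) or without 3 h replicate 1 (0.43). APOM in si-NC, at 0.81, did not pass without 0 h replicate 2 (0.59) or 3 h replicate 1 (0.56). APOM in si-CPSF6 passed without its 0 h replicate 1 (0.90, adjusted p = 0.042) or without either si-NC 3 h library (0.68).

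These rises are on a scale set by the upper quartile of each library and are not changes in a share of the library. Normalized counts, spike-ins included, summed to 19539208 and 19133288 in the si-NC libraries at 0 h and to 33271392 and 31902436 at 6 h. ERCC spike-in RNA had been added per mass of total RNA, and the spike-ins themselves rose by 0.71 and 1.01 in si-NC and by 0.60 and 0.94 in si-CPSF6 at 3 and 6 h. With spike-in scaling the median of all genes at 6 h was -0.70 in si-NC and -0.58 in si-CPSF6, and in TPM -0.43 and -0.32. The members' median stayed above 0, at 0.26 in both arms with spike-in scaling and at 0.39 in si-NC and 0.53 in si-CPSF6 in TPM. In TPM at 6 h 5 members were higher and 1 lower in si-NC, beside 1996 and 6513 of 12188 genes. In si-CPSF6 7 were higher and 0 lower, beside 1753 and 5955 genes. Because total RNA is mostly ribosomal, the spike-in scale is per mass of total RNA and not per cell. None of these scales gives a decay rate. The place of a member among all genes does not depend on such a factor. At 6 h, the members lay above 52.1% (APOC3) to 96.3% (APOA2) of genes in si-NC and above 83.9% (APOC1) to 95.3% (APOB) in si-CPSF6.

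**Figure D4:**
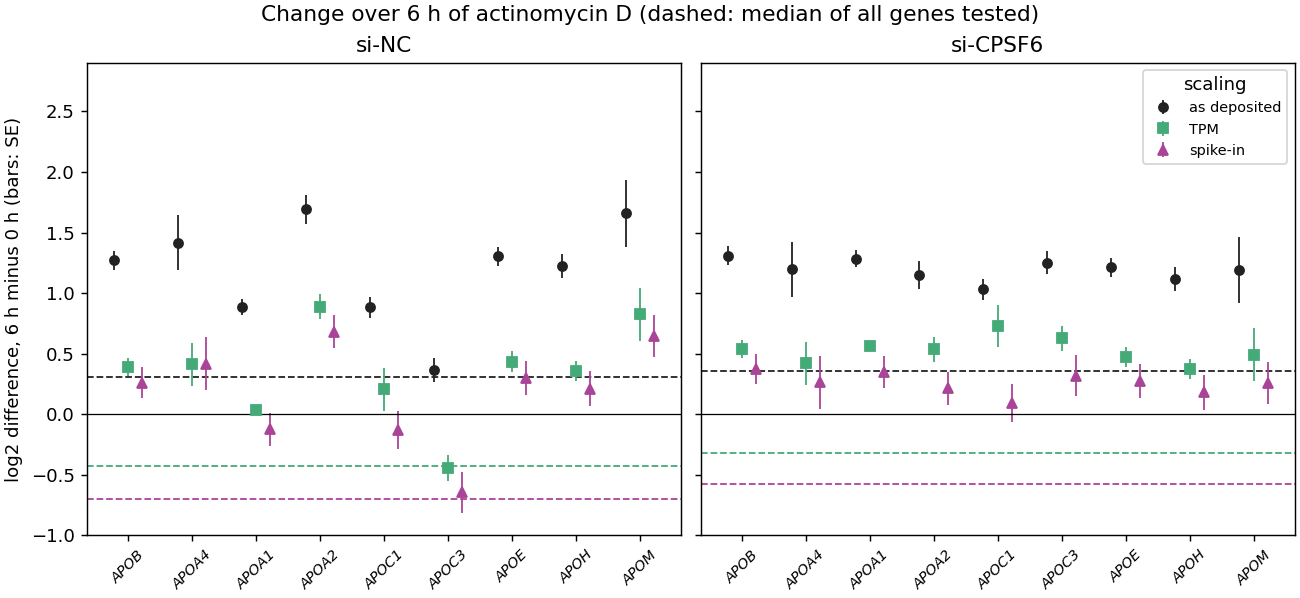
Log2 difference between 6 and 0 h of actinomycin D for each mRNA in si-NC (left) and si-CPSF6 (right) under 3 scalings, with standard errors as bars and the median of all genes tested as dashed lines. All 9 mRNAs lie above the all-gene median of the same scaling in both arms, except APOC3 in si-NC in TPM (-0.45 beside -0.43).

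With spike-in scaling few members passed. In si-NC at 3 h APOA1 (0.37) and APOE (0.59) were higher, against 3.68% of all genes, and 0 were lower, against 49.7%. In si-NC at 6 h APOA2 (0.68, limma adjusted p = 1.1e-05) and APOM (0.65, limma adjusted p = 0.00087) were higher, against 8.83% of all genes. APOC3 was the only member that was lower there (-0.65, limma adjusted p = 0.0006), against 59.5% of all genes. In si-CPSF6 APOA1 and APOB were higher at 3 h (0.34 and 0.40), against 1.87% of all genes, and at 6 h (0.35 and 0.37), against 3.69%. None of the 9 was lower in si-CPSF6, where 42.2% and 55.9% of all genes were. The remaining values, between -0.43 and 0.42, did not pass. The si-CPSF6 replicates at 3 h differed in spike-in share, with 1.429% and 1.128% of normalized counts, and the part of this in the results was not tested.

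APOC3 showed this most plainly. Its spike-in scaled counts in si-NC were 1791 and 1660 at 0 h, 2170 and 2163 at 3 h and 1047 and 1157 at 6 h. In si-CPSF6 they were 943 and 1091 at 0 h, 929 and 1490 at 3 h and 1182 and 1350 at 6 h. The si-NC libraries at 6 h were below those at 0 and 3 h, while the si-CPSF6 libraries at 6 h were above those at 0 h. On the scale of the deposited counts APOC3 at 6 h was higher than at 0 h in si-NC, by 0.36 (limma adjusted p = 0.003), so its direction depended on the scaling: it was 0.09 with median-ratio scaling (adjusted p = 0.39) and -0.45 in the TPM table (adjusted p = 0.0029).

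The difference between the arms in these changes does not carry a factor common to a time in both arms, and few members passed. Up to 3 h, APOE rose by less in si-CPSF6 (0.84) than in si-NC (1.30), a difference of -0.46 (SE 0.11, limma adjusted p = 0.036). It was the 1 member that passed as lower, against 0.734% of all genes, and 0 passed as higher, against 2.26%. This call was lost without si-NC 0 h replicate 1 (-0.36), without either si-NC 3 h library (-0.45 and -0.46), without either si-CPSF6 0 h library (-0.50 and -0.42) and without either si-CPSF6 3 h library (-0.43 and -0.49). It was also lost with spike-in scaling (-0.34, adjusted p = 0.73) and the TPM table (-0.34, adjusted p = 0.28). With the replicate block APOB passed as well, at 0.25 (adjusted p = 0.03).

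Up to 6 h, APOC3 and APOA1 rose by more in si-CPSF6 than in si-NC, and APOA2 by less. The 2 higher calls stand against 12% of all genes and the 1 lower call against 12.4%. For APOC3 the change was 0.36 in si-NC and 1.25 in si-CPSF6, a difference of 0.89 (SE 0.14, limma adjusted p = 0.00035). It passed with each library left out, with spike-in scaling (0.96, adjusted p = 0.0048) and in the TPM table (1.07, adjusted p = 0.0018). For APOA1 the changes were 0.88 and 1.28, a difference of 0.40 (SE 0.10, limma adjusted p = 0.0076), which was 0.47 with spike-in scaling and did not pass there (adjusted p = 0.12). For APOA2 the changes were 1.69 and 1.15, a difference of -0.54 (SE 0.17, limma adjusted p = 0.031). That call was lost without si-NC 0 h replicate 2 (-0.42), si-NC 6 h replicate 1 (-0.44), si-CPSF6 0 h replicate 1 (-0.38), si-CPSF6 6 h replicate 1 (-0.58) or si-CPSF6 6 h replicate 2 (-0.51). It was lost with spike-in scaling (-0.47, adjusted p = 0.13) and the TPM table (-0.35, adjusted p = 0.14) too. With the replicate block APOM passed as lower (-0.47, adjusted p = 0.0014).

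The step from 3 to 6 h was a comparison added after these values had been seen. For APOC3 and APOA1 its difference between the arms was larger than that up to 6 h, and the differences up to 3 h were of the other sign (-0.23 and -0.15) and did not pass. Both mRNAs had a lower normalized count at 6 h than at 3 h in each si-NC library and a higher one in each si-CPSF6 library. The arms differed by 1.12 for APOC3 (SE 0.14, limma adjusted p = 7.1e-05) and by 0.54 for APOA1 (SE 0.10, limma adjusted p = 0.0014). APOC1 (0.40, limma adjusted p = 0.036) and APOE (0.37, limma adjusted p = 0.035) passed in the same direction. These 4 higher calls stand against 7.84% of all genes, and the 0 lower calls against 7.47%. APOC3 also passed with spike-in scaling (1.08, adjusted p = 0.0022), where APOA1 did not (0.51, adjusted p = 0.12), nor did APOC1 or APOE. The calls of APOC1 and APOE were lost without any 1 of the si-NC 3 h or si-NC 6 h libraries, without si-CPSF6 3 h replicate 1 and without si-CPSF6 6 h replicate 2. Their values there were 0.25 to 0.42 for APOC1 and 0.28 to 0.38 for APOE. APOE was also lost without si-CPSF6 3 h replicate 2 (0.40), and APOC1 without either si-NC 0 h library (0.40 in both cases, adjusted p = 0.051). Without either si-CPSF6 0 h library the adjusted p of APOC1 rounded to 0.05. With the replicate block 7 members passed, 4 higher and 3 lower, the latter being APOA2 (-0.40), APOB (-0.22) and APOM (-0.34).

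**Figure D5:**
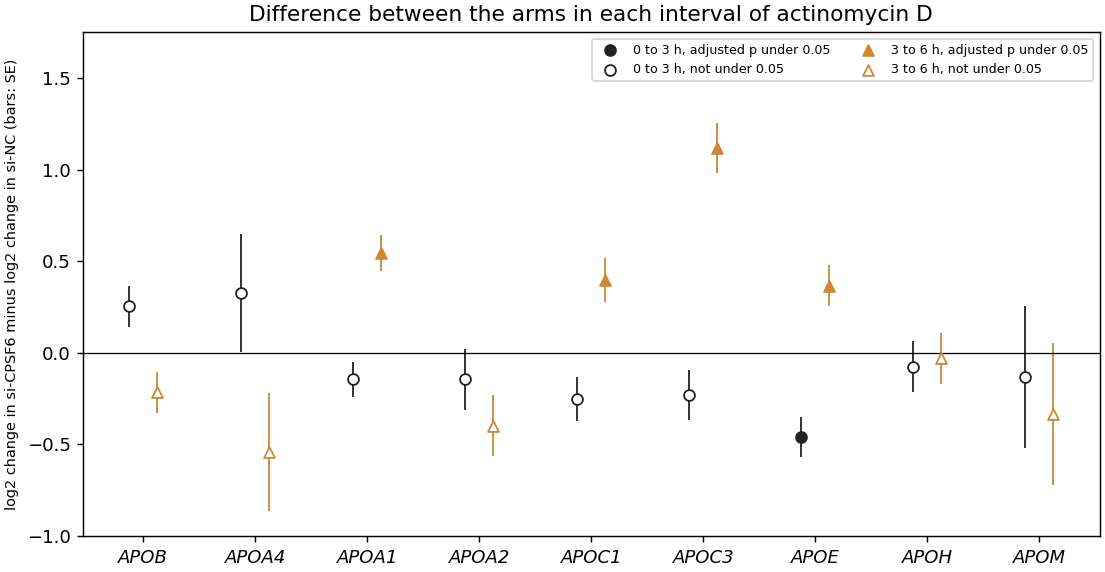
Log2 change in si-CPSF6 minus log2 change in si-NC for each mRNA from 0 to 3 h and from 3 to 6 h of actinomycin D, with standard errors as bars and filled symbols for an adjusted p under 0.05. From 3 to 6 h APOC3 lies at 1.12 and APOA1 at 0.54, while APOE has -0.46 in the first interval and 0.37 in the second.

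APOB, APOA4 and APOH, whose levels differed most steadily between the arms, did not pass for the change up to 6 h. The differences were 0.04 for APOB, -0.22 for APOA4 and -0.11 for APOH, with standard errors of 0.11, 0.32 and 0.14. A p that misses the threshold does not show that their changes were alike.

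The ratio of normalized count to TPM follows the length at which a gene's reads were counted and moves when isoforms of other lengths are assigned. It also carries a factor common to the genes of a library, and for ALB in si-NC it was 31.5 at 0 h and 58.1 at 6 h. At 0 h 0 of the 9 members passed for a difference in this ratio between the arms by limma, against 0.349% of 12895 genes higher and 2.79% lower. At an unadjusted limma p under 0.05, 2 were higher: APOA2 (0.15, adjusted p = 0.10) and APOC3 (0.10, adjusted p = 0.31). At 3 h the same genes were lower at an unadjusted limma p under 0.05, at -0.10 (adjusted p = 0.28) and -0.11 (adjusted p = 0.22). The share of all genes at that unadjusted threshold was not counted at either time, so nothing is drawn from these 2 genes. All 9 values were above 0 at 0 h and below 0 at 3 and 6 h, where the median gene stood at -0.04 and -0.06, and none passed after adjustment. The common factor was not taken out, so these signs and the unadjusted p-values include it. The 0 h values ran from 0.04 (APOB) to 0.25 (APOC1), beside 0.05 for the median gene. The ratio of APOC1 differed between replicates in si-NC, with 8.10 and 5.90 at 3 h and 8.01 and 6.14 at 6 h, so its TPM is less certain than its count.

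Lists of genes around the apolipoproteins were counted at 0 h in the same limma fit, in which 21.8% of all genes were higher and 21.1% lower. Of 8 other apolipoproteins tested 0 were higher in si-CPSF6 and 2 were lower: APOA5, which lies in the chromosome 11 cluster and supports triglyceride clearance (-0.54, adjusted p = 3e-04), and APOL2 (-0.43). Up to 6 h APOA5 rose by 0.97 in si-CPSF6 and had 0.17 in si-NC (adjusted p = 0.11), a difference between the arms of 0.80 (adjusted p = 0.00059). In that difference 4 of the 8 other apolipoproteins were higher and 0 lower, with a median of 0.54, beside 12% and 12.4% of all genes. APOA4, of the same cluster as APOA5, had -0.22 and did not pass. At 0 h, of 20 genes for lipoprotein assembly and secretion 7 were higher and 3 lower. DGAT2 (-0.86) and DGAT1 (-0.69), the enzymes that complete triglyceride, fell, and PLTP, which transfers phospholipid, rose (0.52). The list median was 0.05. Of 4 listed genes of APOB mRNA editing only 3 were present and tested. Of these 2 were lower, among them A1CF, the RNA-binding cofactor of the editing enzyme (-0.75, adjusted p = 4.9e-06). Editing itself was not examined.

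Of 14 receptor and uptake genes 7 were higher and 4 lower, with a median of 0.44. SDC1, a heparan sulfate proteoglycan that binds remnants, rose by 1.08 (adjusted p = 1.1e-08). Of 11 genes of lipoprotein remodelling and sterol efflux 2 were higher and 5 lower, led by ANGPTL8 (-1.77), a regulator of lipoprotein lipase, and by the sterol exporter subunits ABCG5 (-1.35) and ABCG8 (-0.84).

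Of 26 tested transcription factors known to act on apolipoprotein genes 1 was higher and 9 were lower in si-CPSF6. MLXIPL, which answers to glucose, had the largest difference (-1.42, adjusted p = 3e-08), followed by PPARGC1A (-1.03) and ESRRA (-0.85). HNF4A, a main activator of the chromosome 11 cluster, was lower as well (-0.75, adjusted p = 1.2e-06). After 6 h of the drug 7 of these 26 were higher and 16 lower in si-NC, with a median of -0.86, while the members all rose in the same fit and 48.6% of all genes were higher and 30.7% lower. With spike-in scaling 1 was higher and 20 were lower, with a median of -1.87, beside 8.83% and 59.5% of all genes. Of 22 other plasma protein genes 4 were higher and 6 lower in si-CPSF6 at 0 h, with HP, the haemoglobin scavenger, at -1.25, the fibrinogen chain FGB at 1.09 and TTR, which carries thyroid hormone, at 1.07. Over 6 h in si-NC 21 of the 22 rose and 0 fell, with a median of 1.25 beside the members' 1.27, where 48.6% of all genes rose and 30.7% fell. With spike-in scaling 10 were higher and 3 lower, with a median of 0.24 beside the members' 0.26. No list was compared with the rest of the genes by a test.

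The genes whose pattern over the 12 libraries was nearest to that of a member were found among 10544 genes by the root mean square of the difference in centred log2 counts. APOA1 was nearest to AMBP (0.07), LAMB2 (0.08) and SPTAN1 (0.09), and APOC3 to VTN (0.13), LOXL4 (0.15) and SLC47A1 (0.16). APOB was nearest to EXT2 (0.09), GLG1 (0.10) and TMEM30A (0.10), and APOH to PROC, KIAA1191 and MAL2, each at 0.09. APOA4 had no close neighbour, with VCAN at 0.33, SCN1A at 0.39 and NRP1 at 0.40, beside a range of 4.07 of its own. The nearest genes of the others were TMEM219 for APOA2 (0.06), DCTN3 for APOC1 (0.10), PIDD1 for APOE (0.08) and ANXA2 for APOM (0.14). No member was among the nearest 3 genes of another.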

How the data were processed

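The main deposited table is treated as a score: its values look like gene counts that the authors brought to a common upper quartile and rounded, so count models were not used. The other table gives TPM, made by the authors for the same entries. STAR, RSEM and hg38 are named in the submitters' processing notes; versions, annotation and strand use were not given in the sources used here.

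limma 3.58.1 (R 4.3.3, with trend and robust) compared log2(normalized count + 1) in a single model of the 6 group means over 12 libraries with 6 residual degrees of freedom, for the 12939 genes whose mean reached 20. Fold changes are on that scale. P-values were adjusted over all genes tested (Benjamini-Hochberg, threshold 0.05). Spike-in scaling used 47 of 87 ERCC entries. Depth came from the steps between attainable values. The fit and the depth estimate were tested on simulated data. Symbols were found for 22069 of 22148 genes.

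The members and gene lists were chosen with earlier results of these data known. Beyond the members, the text names CPSF6, up to 3 genes per list (the largest differences at 0 h that passed, mean of at least 100) and the nearest genes; APOA5 over time, BAG6, AC011481.3 and LYZ were named after their values were seen. Some genes that this rule takes are not reported here. Same-numbered libraries deviated together (correlations 0.1075 to 0.2358 over 15 pairs of groups), so the numbers were taken to pair them. This rests on the values, since the labels name no shared batch. The main fit left this pairing out, and the replicate block was run only as an alternative. Replicates of a group correlated at 0.9911 to 0.9931, and no 2 agreed within counting noise. Alternatives were other pseudocounts, filters and scalings, the TPM table, limma with plain settings, the replicate block, only the groups compared, and each library left out.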

Additional observations from a re-analysis of the deposited data

Results flagged for a closer look

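The changes under actinomycin D of 5 members differed between si-CPSF6 and si-NC by a test of the difference itself (limma adjusted p). Up to 3 h this was APOE (-0.46, adjusted p = 0.036), where 2.26% of all genes were higher and 0.734% lower. Up to 6 h it was APOC3 (0.89, adjusted p = 0.00035), APOA1 (0.40, adjusted p = 0.0076) and APOA2 (-0.54, adjusted p = 0.031). Of all genes 12% were higher and 12.4% lower there. From 3 to 6 h it was APOC3 (1.12, adjusted p = 7.1e-05), APOA1 (0.54, adjusted p = 0.0014), APOE (0.37, adjusted p = 0.035) and APOC1 (0.40, adjusted p = 0.036). In that step 7.84% of all genes were higher and 7.47% lower. It was added after the other values had been seen, and APOC1 passed only in it. The calls of APOE, APOA2 and APOC1 were each lost with some single libraries left out. These 3 comparisons share libraries, so a gene named under several is not seen independently in each. Of the 8 values, the 2 of APOC3 also passed with spike-in scaling.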

How the results depend on the processing

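Pseudocounts (90 values of single members each) and the filter of 100 (99 values) changed no call, and most changes came with spike-in scaling (33 calls lost beside those that turned sign) and the TPM table (17 lost, 2 gained). Without the filter 5 calls were lost, with median-ratio scaling 4 were lost and 1 gained, without trend and robust settings 7 and 1, and with only the groups compared 3 and 1. With spike-in scaling the members that passed numbered 3 for si-CPSF6 against si-NC at 6 h, 2 and 3 for si-NC at 3 and 6 h, 2 and 2 for si-CPSF6, and 0, 1 and 1 for the difference between the arms up to 3 h, up to 6 h and from 3 to 6 h. The TPM table gave 4 for si-NC at 3 h, and 0 and 2 for the differences up to 3 h and from 3 to 6 h; limma without trend and robust settings gave 0 and 2 as well. The replicate block gave 2 and 7 for these differences and changed no call other than those given with it in the text. Values turned sign with spike-in scaling in si-NC at 6 h (APOA1 -0.13, APOC1 -0.13, APOC3 -0.65), for APOA4 at 3 h in si-NC (-0.43) and si-CPSF6 (-8e-04), and for APOH in the difference up to 3 h (0.0381). In the TPM table they did for APOA4 at 3 h (-0.22) and APOC3 at 6 h (-0.45) in si-NC, in the difference up to 3 h for APOA2 (0.11), APOC1 (0.19), APOH (0.0265) and APOM (0.0022), and up to 6 h for APOA4 (0.0088), APOE (0.0381) and APOH (0.0188). The cause was not tested. With each library left out in turn 0 to 1, 2 to 3 and 2 to 4 members passed for the differences up to 3 h, up to 6 h and from 3 to 6 h, 5 to 9 for the other comparisons of level and 0 for the ratio of count to TPM. Values whose sign turned in that series, passing neither way except as given for APOA4, ranged for si-CPSF6 against si-NC from -0.0633 to 0.389 (APOM, 0 h), -0.224 to 0.285 (APOM, 3 h) and -0.186 to 0.0113 (APOA2, 6 h), and for APOA4 in si-NC at 3 h from -0.146 to 0.686. In the difference up to 3 h they ranged from -0.309 to 0.021 (APOA2), -0.0915 to 0.741 (APOA4), -0.231 to 0.0788 (APOH) and -0.387 to 0.122 (APOM). Up to 6 h they ranged from -0.636 to 0.197 (APOA4), -0.0174 to 0.0948 (APOB), -0.0016 to 0.299 (APOC1), -0.191 to 0.0065 (APOE) and -0.261 to 0.0492 (APOH), and from 3 to 6 h from -0.148 to 0.0888 (APOH). With 2 libraries a group, small differences could not be separated from the spread.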
